A study of Mus musculus with 48 samples.

Results

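The peroxisome genes followed here were 31 mouse genes named by symbol, out of 55450 genes in the count tables, and all 31 were found in the tables of both cell types. They are genes of the peroxisome by function, and no threshold on a measured value entered the rule that lists them. They were, however, chosen with earlier results of these data known. They cover membrane assembly (Pex3, Pex16, Pex19), matrix import (Pex5, Pex7, Pex13, Pex14, Pex2, Pex10, Pex6, Pex26), division (Pex11a, Pex11g), fatty acid oxidation with its transporters and exporters (Acox3, Ehhadh, Hsd17b4, Acaa1a, Acaa1b, Scp2, Decr2, Eci2, Abcd2, Abcd3, Crot, Acot8, Phyh), ether lipid synthesis (Gnpat, Agps), hydrogen peroxide removal (Cat) and membrane proteins (Pxmp2, Pxmp4).

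RNA was sequenced from preadipocytes of inguinal white fat and from mouse embryonic fibroblasts (MEFs), cells of the C57BL/6 strain that were either wild type (WT) or lacked both Hmgn1 and Hmgn2 (Hmgn1-/- and Hmgn2-/-, DKO). HMGN1 and HMGN2 are nucleosome-binding proteins, and the comparison asks what their loss does while cells become fat cells. Preadipocytes were sampled on days 0, 3, 6 and 9 and MEFs on days 0, 4, 8 and 12, with 3 libraries for each genotype and day, 48 in all. The preadipocytes came from adult mice and the MEFs from mid-gestation embryos, and both alleles were lost from the germ line, so every cell of a DKO culture lacked both proteins from the start. WT and DKO cultures were given the same agents, insulin at 0.5 μg/ml, dexamethasone at 5 μM, IBMX at 0.5 mM, T3 at 1 nM and rosiglitazone at 1 μM during induction. This step lasted 4 days in preadipocytes and 8 days in MEFs and was followed by 4 days in insulin and T3. Rosiglitazone activates PPARγ, the nuclear receptor that drives fat cell formation, so no group shows differentiation without that drug.

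Peroxisomes are small organelles enclosed by a membrane, which shorten very long and branched fatty acids, break down the hydrogen peroxide made on the way, and begin the synthesis of ether lipids. Proteins called peroxins, the products of the Pex genes, build the membrane, carry enzymes from the cytosol into the lumen and divide the organelle. Peroxisomes multiply when fat cells form and are plentiful in brown fat, and several of the genes are known targets of the PPAR family of receptors.

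Libraries held 19809397 to 36006696 counts in preadipocytes and 18962483 to 33083213 in MEFs, and levels are given as CPM, counts scaled to the total of the library, after TMM scaling within a cell type. Hmgn2, one of the deleted genes, had 32.4 CPM or more in the WT libraries of preadipocytes and 0 to 0.329 CPM in the DKO libraries. Hmgn1 kept 73.7 to 97.7 CPM in the DKO preadipocytes, so that gene-level counts check the loss of Hmgn2 and not that of Hmgn1. The labelled cell types had their markers: the summed level of 10 adipocyte genes (Adipoq, Fabp4, Plin1 and others) rose in WT preadipocytes from 160.4 to 427 CPM at day 0 to between 29120 and 30380 CPM at day 9. In WT MEFs it rose from 965 to 1171 CPM to between 19610 and 20010 CPM at day 12. Libraries of one group could still differ in MEFs: the summed level of the 31 members was 2175 CPM in replicate 1 of the WT MEFs at day 4 against 1510 and 1474 in the other two libraries. It was 1749 in replicate 2 of day 8 against 2535 and 2565, and 1852 in replicate 3 of the DKO MEFs at day 8 against 3868 and 3193. The labels do not say whether replicates came from separate cultures or animals. The paper calls them 3 biological replicates and does not say which of these was meant. Those of the WT MEFs at day 12 lay very close together, so the p-values measure the spread between these libraries, which may be technical.

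Differentiation was accompanied by higher levels of nearly all the peroxisome genes. In WT preadipocytes, 29 of 31 were called higher at day 9 than at day 0, and in WT MEFs 22 of 31 at day 12. A gene was called where its fold change was 1.5 or more and its p from the edgeR quasi-likelihood test, adjusted over all genes tested by the Benjamini-Hochberg method, was under 0.05. Over all genes, the share called higher was 26.6% in the first comparison and 15.8% in the second (4104 of 15450 and 2480 of 15684 genes tested). The median log2 fold change of the members was 1.83 in preadipocytes and 1.18 in MEFs, beside 0.005 and 0 over all genes tested. The DKO cells rose likewise, with 30 of 31 members called at day 9 in preadipocytes (background 4207 of 15576 genes tested, 27%) and 26 of 31 at day 12 in MEFs (background 2392 of 15542 genes tested, 15.4%). With scaling by library size alone, the higher calls over all genes made up 40.2% of calls in place of 52.6% in WT MEFs, 37.1% in place of 48.6% in DKO preadipocytes and 37% in place of 62% in DKO MEFs. Markers of other cells changed over the same days: 6 macrophage and leukocyte genes summed to 120.7 to 434.6 CPM at day 0, 61.2 to 204 CPM at day 3, 4690 to 7980 CPM at day 6 and 2385 to 5127 CPM at day 9 in WT preadipocytes. In WT MEFs that sum was 6224 to 8296 CPM at day 0 and 3791 to 3839 CPM at day 12. The part of these cells in the rise of the members was not tested. In bulk samples such as these, fewer cells of a type and less RNA per cell cannot be told apart.

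Most calls in preadipocytes came after day 3. On that day, 9 members were above day 0 (background 1478 of 15139 genes tested, 9.76%) and 1, Decr2, was below it (background of lower calls 1852 of 15139 genes tested, 12.2%). At day 6, 28 were above it (background 3961 of 15497 genes tested, 25.6%). Summed over the 31 genes, the WT preadipocytes held 1002, 1024 and 1004 CPM at day 0, 1174, 1293 and 1306 CPM at day 3, 4075, 4871 and 4265 CPM at day 6, and 4515, 4684 and 4668 CPM at day 9. In WT MEFs, which were sampled on other days, 8 members were above day 0 at day 4 (background 2342 of 15690 genes tested, 14.9%), 15 at day 8 (background 1881 of 15467 genes tested, 12.2%) and 22 at day 12. The sum went from 1315, 1309 and 1286 CPM at day 0 to 4113, 4029 and 4009 CPM at day 12. All of these comparisons share the day 0 libraries of their cell type, and the comparisons of DKO with WT further on use the same libraries again. The day 8 count rested on single libraries, since it was 9 without replicate 3 of day 0 and 19 without the low replicate 2 of day 8. At an adjusted p under 0.05 and any fold, 14 members passed at day 4 (background 8217 of 15690 genes tested, 52.4%) and 23 at day 8 (background 7420 of 15467 genes tested, 48%).

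**Figure D1:**
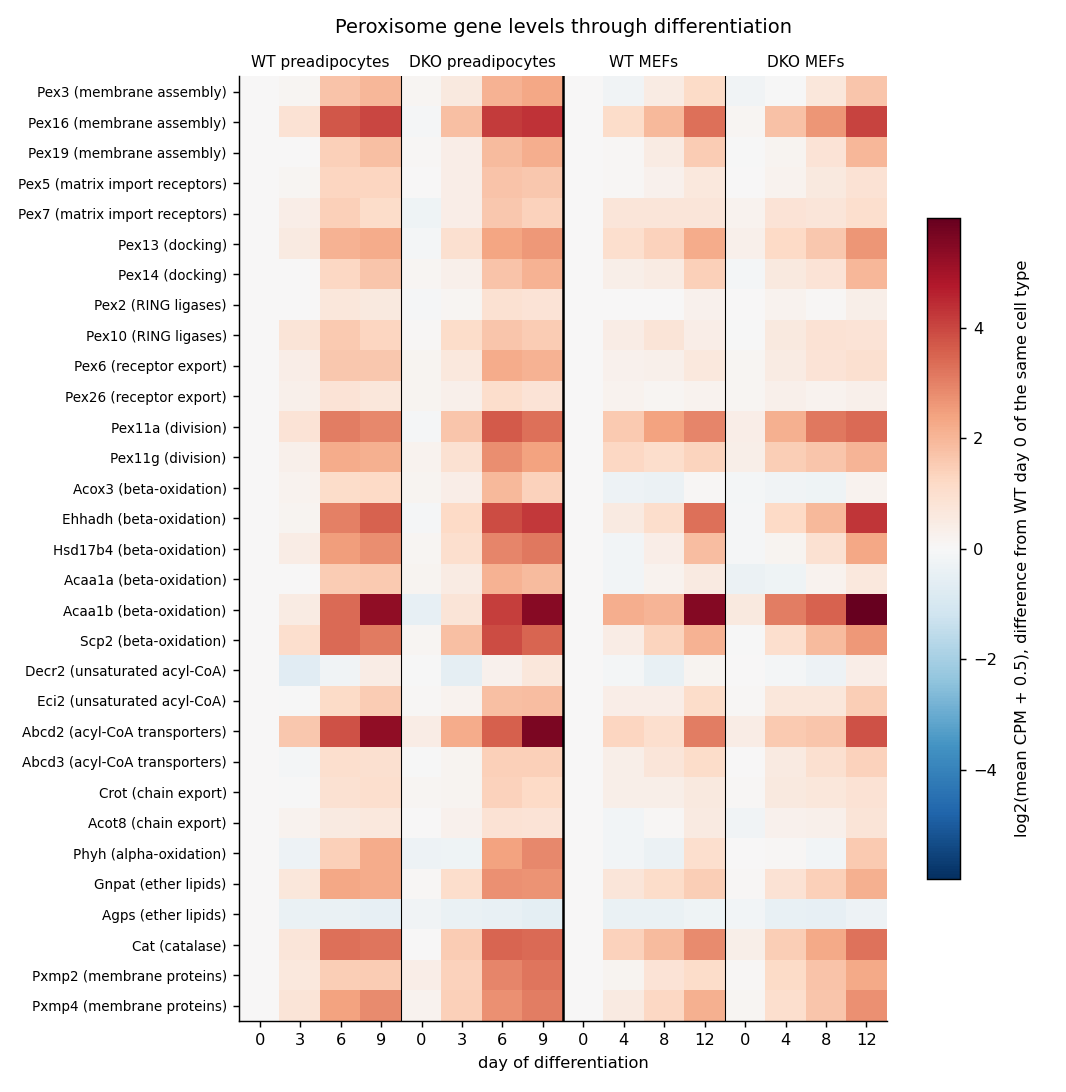
Mean level of each peroxisome gene as the difference from the WT mean at day 0 of the same cell type (colour, log2 of CPM plus 0.5), with genes in rows by role and genotype and day in columns, each column the mean of 3 libraries. Red, for levels above day 0, covers most rows from day 6 in preadipocytes and by day 12 in MEFs, and the row of Agps stays blue or white.

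The genes that assemble the peroxisome membrane all rose. Pex16 encodes the membrane protein that recruits PEX3, and PEX3 in turn is the docking partner of PEX19, the chaperone that delivers new membrane proteins. In WT preadipocytes Pex16 had 5.89, 8.14 and 6.70 CPM at day 0 and 119, 117 and 120.2 CPM at day 9. In WT MEFs it had 7.60, 7.02 and 8.12 CPM at day 0 and 80.1, 77.0 and 77.2 CPM at day 12. Those are log2 fold changes of 4.11 ± 0.11 (standard error, SE) and 3.37 ± 0.066, the largest of any peroxin gene among the members in both cell types. Pex16 shares exon sequence with Large2 on the opposite strand. For Pex19 the preadipocyte values were 82.2, 87.9 and 76.2 CPM and then 288, 291 and 289 CPM, and the MEF values 96.2, 93.5 and 101 CPM and then 284, 276 and 269.8 CPM. Pex3 went from 15.9, 15.3 and 16.0 to 60.1, 65.8 and 63.1 CPM in preadipocytes and from 21.8, 22.6 and 20.1 to 47.4, 49.97 and 49.5 CPM in MEFs. The log2 fold changes were 1.83 and 1.51 for Pex19 and 2.01 and 1.18 for Pex3, in preadipocytes and MEFs respectively.

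Enzymes enter the peroxisome bound to a receptor, PEX5 or PEX7, which docks on PEX13 and PEX14. Pex13 showed the largest rise of these: 34.9, 32.1 and 34.2 CPM at day 0 and 157, 170.1 and 157 CPM at day 9 in WT preadipocytes. In WT MEFs it had 31.4, 27.4 and 29.1 CPM at day 0 and 138, 132 and 138 CPM at day 12. These are log2 fold changes of 2.27 ± 0.067 and 2.21 ± 0.054. Pex14 had 29.8, 34.0 and 23.8 CPM and 92.9, 87.1 and 100.1 CPM in the preadipocytes and 28.3, 28.5 and 28.1 CPM and 76.4, 77.4 and 79.2 CPM in the MEFs (1.69 and 1.46 on the log2 scale). Both docking genes thus rose in both cell types. Of the receptors, Pex5 had 46.3, 55.0 and 50.3 CPM before and 125, 118 and 129.8 CPM after differentiation of preadipocytes. In MEFs it had 71.0, 69.2 and 71.9 and 112, 112 and 104 CPM (log2 fold changes 1.31 and 0.63). Pex7 had 12.4, 11.8 and 13.9 and then 27.5, 29.1 and 26.4 CPM in preadipocytes and 14.0, 12.8 and 11.9 and then 23.99, 19.6 and 22.0 CPM in MEFs (1.13 and 0.76).

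After delivery, the receptor is marked with ubiquitin by the RING proteins, PEX2 and PEX10 among them, and pulled out by the PEX6 motor, which PEX26 anchors to the membrane. Of these 4 genes Pex6 was called in both cell types, with 22.7, 24.3 and 21.0 CPM at day 0 and 71.1, 62.0 and 75.3 CPM at day 9 in preadipocytes. In MEFs it had 35.1, 36.5 and 34.4 and 58.2, 55.7 and 52.9 CPM at days 0 and 12 (log2 fold changes 1.62 and 0.65). Pex2, Pex10 and Pex26 were called higher in preadipocytes, with log2 fold changes of 0.60, 1.41 and 0.74. They were not called in MEFs, where the values were 0.28, 0.45 and 0.22. The difference between the cell types was not tested.

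Division factors of the PEX11 family, which elongate the membrane before it is cut, rose as well. Pex11a had 5.97, 6.49 and 7.07 CPM at day 0 and 49.9, 50.3 and 50.1 CPM at day 9 in WT preadipocytes. In WT MEFs it had 5.64, 5.59 and 4.82 CPM at day 0 and 45.1, 43.7 and 44.3 CPM at day 12. The log2 fold changes, 2.96 ± 0.087 and 3.05 ± 0.078, were close to each other. Pex11g rose from 3.64, 3.53 and 4.47 to 17.6, 17.4 and 21.0 CPM and from 3.54, 3.66 and 4.04 to 10.4, 10.4 and 9.95 CPM (2.28 and 1.46).

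The enzymes of the fatty acid oxidation cycle differed widely in how far they rose. Acaa1b encodes a thiolase, the enzyme of the last step, and started low at day 0: 2.86, 3.83 and 3.77 CPM in WT preadipocytes and 2.35, 2.57 and 2.31 CPM in WT MEFs. The values were 159.7, 141 and 173 CPM at day 9 and 134, 125 and 127 CPM at day 12. Its log2 fold changes were 5.51 ± 0.14 and 5.74 ± 0.068. About 30.5% of the 50-base stretches of its exons also occur in Acaa1a, so reads may be divided between the pair. Acaa1a itself showed 1.57 in preadipocytes and 0.53 in MEFs, the latter under the fold threshold. Ehhadh encodes the L-bifunctional enzyme of the middle steps. It had 4.83, 5.31 and 4.47 CPM at day 0 and 58.5, 65.0 and 62.6 CPM at day 9 in preadipocytes. In MEFs it had 6.13, 7.21 and 7.17 CPM at day 0 and 71.2, 72.1 and 73.6 CPM at day 12. The log2 fold changes were 3.68 ± 0.092 and 3.41 ± 0.071. Its counterpart Hsd17b4, the D-bifunctional enzyme, rose from 63.4, 60.5 and 64.3 to 422, 458 and 441 CPM and from 108, 101 and 101 to 386, 357 and 367 CPM (2.82 and 1.84). Scp2, whose product carries sterols and includes a thiolase for branched chains, rose from 125, 128 and 118 to 1048, 1093 and 1030.2 CPM and from 154, 153 and 151 to 637, 644 and 633 CPM (3.10 and 2.06). Its exons share 29.7% of their 50-base stretches with the pseudogene Scp2-ps2. Acox3, the oxidase of branched chains, differed between the cell types in its values: 1.21 in preadipocytes (called) and 0.095 in MEFs. There it had 62.2, 70.1 and 64.6 CPM at day 0 and 69.4, 72.2 and 68.4 CPM at day 12, and the groups overlapped.

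Unsaturated fatty acids need accessory enzymes, and they behaved unequally. Eci2, an isomerase, rose from 40.4, 43.1 and 44.5 to 125, 121 and 119 CPM in WT preadipocytes and from 45.8, 47.4 and 43.8 to 97.9, 96.1 and 101 CPM in WT MEFs (1.52 and 1.11). Decr2, a reductase, fell first: it had 24.6, 23.3 and 25.8 CPM at day 0 and 15.1, 17.3 and 13.4 CPM at day 3 in WT preadipocytes. This log2 fold change of -0.68 ± 0.11 (adjusted p = 0.005) was the only lower call of a member in any comparison. At day 9 it stood at 33.5 CPM, above day 0 but under the fold threshold (0.46).

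Substrates reach the lumen through ABC transporters and leave as shortened chains. Abcd2, a carrier of very long chains, had the largest preadipocyte rise of all members: 1.51, 1.52 and 2.51 CPM at day 0 and 85.8, 94.9 and 96.6 CPM at day 9, a log2 fold change of 5.66 ± 0.17. In WT MEFs it had 8.96, 12.3 and 9.85 CPM at day 0 and 90.9, 89.3 and 86.1 CPM at day 12 (3.10 ± 0.092). The related Abcd3, a carrier of branched and dicarboxylic chains, went from 86.8, 91.7 and 87.3 to 169, 177 and 174 CPM in preadipocytes and from 74.9, 70.3 and 71.9 to 160.2, 147 and 153 CPM in MEFs, changes of only 0.98 and 1.08. The exporters Crot, a carnitine acyltransferase, and Acot8, a thioesterase, were called in preadipocytes (1.04 and 0.70) and reached 0.58 and 0.57 in MEFs, under the fold threshold.

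Alpha-oxidation begins with PHYH, which hydroxylates phytanic acid. Phyh rose from 22.5, 21.8 and 32.8 to 119, 118 and 127 CPM in WT preadipocytes and from 19.95, 23.8 and 22.1 to 45.0, 45.3 and 43.5 CPM in WT MEFs (2.25 and 1.02). The first enzymes of ether lipid synthesis went apart. Gnpat, the acyltransferase, rose from 41.6, 39.0 and 42.7 to 178, 188 and 204 CPM and from 53.3, 53.7 and 55.1 to 153, 152 and 154 CPM (2.22 and 1.501), with 6.37% of its exonic 50-base stretches shared with the overlapping Gm16163. Agps, the synthase of the next step, was the one member whose levels were lower at the end: 97.7, 88.8 and 99.99 CPM at day 0 and 64.4, 68.9 and 67.1 CPM at day 9 in WT preadipocytes. It had 102, 97.1 and 89.1 CPM at day 0 and 79.5, 79.0 and 78.6 CPM at day 12 in WT MEFs. Neither pair of groups overlapped, and the log2 fold changes, -0.51 ± 0.068 in preadipocytes (adjusted p = 0.000233) and -0.28 ± 0.051 in MEFs (adjusted p = 0.00027), were under the fold threshold.

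Catalase, which splits hydrogen peroxide, is the classical marker enzyme of the peroxisome. Cat had 71.5, 74.7 and 69.9 CPM at day 0 and 637, 704 and 684 CPM at day 9 in WT preadipocytes. In WT MEFs it had 135, 139 and 127 and 952, 938 and 923 CPM at days 0 and 12 (log2 fold changes 3.24 ± 0.074 and 2.81 ± 0.047). Of the membrane proteins, Pxmp4 rose from 12.3, 11.8 and 12.9 to 86.3, 88.9 and 93.5 CPM and from 17.1, 14.4 and 15.0 to 67.2, 68.6 and 69.8 CPM (2.87 and 2.14). Pxmp2, which encodes a channel for small solutes, had the fewest counts of the members at day 0, at most 49 in a library. It had 0.695, 0.740 and 0.744 CPM at day 0 and 2.72, 2.91 and 3.40 CPM at day 9 in preadipocytes, and 1.30, 1.06 and 0.824 CPM and 2.96, 2.22 and 3.43 CPM in MEFs (2.06 and 1.42). Exons of Pxmp2 overlap those of Gm15788 on the opposite strand.

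**Figure D2:**
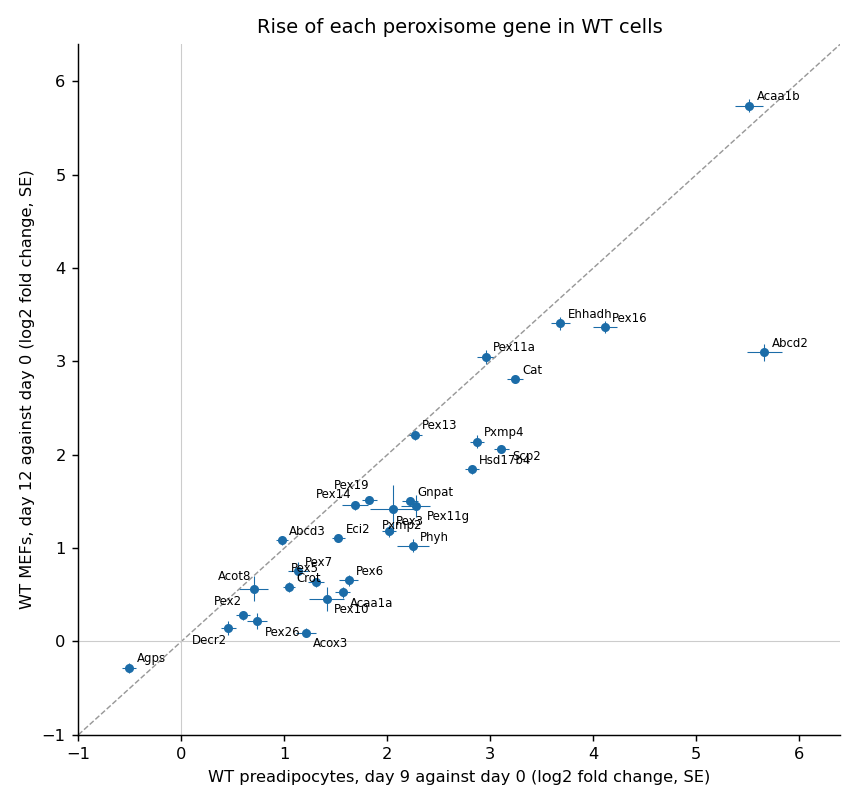
Log2 fold change of each peroxisome gene from day 0 to the last day in WT cells, preadipocytes (day 9, horizontal) against MEFs (day 12, vertical), with bars of 1 SE in each direction and a dashed line of equal change. Of the 31 genes, 27 lie under the line, Acaa1b, Pex11a and Abcd3 lie above it, and Agps lies under 0 on both axes.

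The promoters of genes that moved together are shown for Pex16, Ehhadh, Pex11a and Acaa1b, which rose strongly in both cell types, and for Agps, which did not rise. The sequences are the 250 bases upstream of the annotated start in RefSeq (GRCm38.p6), read 5′ to 3′ toward the gene, with matches to the searched motifs in capitals. RefSeq promoters were matched for 26 of 31 members, which have 30 promoter windows between them.
Pex16 (chr2:92374426-92374675, plus strand): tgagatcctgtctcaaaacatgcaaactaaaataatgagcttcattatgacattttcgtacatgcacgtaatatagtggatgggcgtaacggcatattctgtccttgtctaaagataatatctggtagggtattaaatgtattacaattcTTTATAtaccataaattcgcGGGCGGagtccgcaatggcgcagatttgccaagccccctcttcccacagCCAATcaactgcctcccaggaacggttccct
Ehhadh (chr16:21787835-21788084, minus strand): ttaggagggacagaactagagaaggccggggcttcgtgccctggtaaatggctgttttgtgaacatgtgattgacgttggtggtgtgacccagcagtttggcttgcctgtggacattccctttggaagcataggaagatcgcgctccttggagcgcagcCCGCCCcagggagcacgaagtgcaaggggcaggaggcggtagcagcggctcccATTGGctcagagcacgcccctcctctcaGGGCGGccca
Pex11a (chr7:79743132-79743381, minus strand): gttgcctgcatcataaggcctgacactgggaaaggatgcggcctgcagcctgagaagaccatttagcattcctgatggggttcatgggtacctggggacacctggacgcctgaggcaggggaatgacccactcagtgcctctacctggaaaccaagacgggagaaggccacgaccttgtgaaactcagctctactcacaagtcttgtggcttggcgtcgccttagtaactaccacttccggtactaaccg
Acaa1b (chr9:119157094-119157343, minus strand): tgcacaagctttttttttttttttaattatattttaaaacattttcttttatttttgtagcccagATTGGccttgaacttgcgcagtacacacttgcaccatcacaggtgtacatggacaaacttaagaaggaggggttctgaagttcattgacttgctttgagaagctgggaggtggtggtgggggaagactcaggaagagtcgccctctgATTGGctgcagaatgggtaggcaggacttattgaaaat
Agps (chr2:75831927-75832176, plus strand): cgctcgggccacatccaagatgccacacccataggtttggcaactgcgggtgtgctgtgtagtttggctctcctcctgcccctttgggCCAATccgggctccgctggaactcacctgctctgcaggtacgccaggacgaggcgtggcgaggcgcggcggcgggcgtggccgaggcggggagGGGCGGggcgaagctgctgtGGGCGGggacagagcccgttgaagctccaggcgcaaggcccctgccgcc

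A direct repeat of half-sites spaced by 1 base, as PPAR with its partner RXR can bind, was searched on both strands as AGGNCA, any base, and AGGNCA again. It occurred in 0 of the 30 member windows, against 0.338% of all 32851 promoter windows of that length. These letters are not in the windows, which says nothing of sites elsewhere. The GC box GGGCGG was in 66.7% of the member windows against 32.7% of all, and the letters CCAAT were in 43.3% against 33.8%. In the windows shown, Pex16, Ehhadh and Agps hold both, Acaa1b holds CCAAT alone, and Pex11a holds none of the motifs searched. A second window of Pex16 (chr2:92374989-92375238), not shown, also holds none of them. The E-box CACGTG was in 3.33% of member windows (6.02% of all), the cyclic AMP element TGACGTCA in 3.33% (1.55%) and TATAAA in 10% (12.4%). None of these motifs contains another, and a match is a description of the letters alone.

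Loss of HMGN1 and HMGN2 was accompanied by higher levels of some peroxisome genes during differentiation, and no member passed the test at its start. The main edgeR test called members only at days 6 and 9 in preadipocytes and day 12 in MEFs. The members' median log2 fold change in preadipocytes was already 0.36 at day 3, against 0.42 at day 6. At day 6 in preadipocytes 6 of 31 members were called higher in DKO than in WT cells (Pex11a, Acox3, Ehhadh, Eci2, Phyh and Pxmp2), beside 739 of 14694 genes tested, 5.03%. At day 12 in MEFs 7 of 31 were called higher (Pex16, Pex11g, Ehhadh, Abcd2, Gnpat, Pxmp2 and Pxmp4), beside 601 of 15319 genes tested, 3.92%. At day 9 in preadipocytes Ehhadh and Pxmp2, 2 of 31, were called, beside 69 of 14700 genes tested, 0.469%. No member was called lower, where the background of lower calls was 960 of 14694 genes tested, 6.53% at day 6, 114 of 14700 genes tested, 0.776% at day 9 and 621 of 15319 genes tested, 4.05% at day 12. Leaving out 1 library moved the count at day 6 to between 4 and 10, with 10 reached without WT replicate 2. At day 9 it was 0 without any one of the WT libraries and 1 without DKO replicate 3. At day 12 in MEFs it ranged from 5 to 9. With scaling by library size alone, the higher calls made up 28.8% of all calls at day 6 in place of 43.5%, 16.2% at day 9 in place of 37.7% (21.8% by DESeq2) and 38.5% at day 12 in MEFs in place of 49.2%.

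Day 0 gave no difference that passed the test in either cell type. In preadipocytes 0 members were called (background 11 of 15123 genes tested, 0.0727%), and 0 by DESeq2 or limma-voom. There 3 members had an unadjusted p under 0.05 (background 1188 of 15123 genes tested). In MEFs 0 were called (background 6 of 15671 genes tested, 0.0383%), and 0 by the other tools. There 2 members had an unadjusted p under 0.05 (background 1454 of 15671 genes tested). Summed over the members, the DKO level was 1.02 times the WT level in both. The middle days gave no call by the main edgeR test either, which had a filter on low counts and no block. At day 3 in preadipocytes 0 of 31 were called (background 25 of 15119 genes tested, 0.165%). Still, 19 had an unadjusted p under 0.05 (background 1838 of 15119 genes tested). DESeq2 called 6, Ehhadh, Pex16, Cat, Scp2, Pxmp4 and Hsd17b4, where it called 408 genes in all and the main edgeR test 51. Without the filter edgeR called the same 6, of 154 genes called in all. With the replicate number as a block it called 5, of 278. In MEFs at days 4 and 8, 0 of 31 were called (backgrounds 3 of 15475 genes tested, 0.0194%, and 2 of 15117 genes tested, 0.0132%). DESeq2 and limma-voom also called 0. The counts at an unadjusted p under 0.05 were 3 and 5 (backgrounds 915 of 15475 and 1295 of 15117 genes tested).

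Small differences in one direction made up most of the pattern. The median log2 fold change of the members was 0.079, 0.36, 0.42 and 0.30 at days 0, 3, 6 and 9 in preadipocytes. It was 0.046, 0.21, 0.34 and 0.41 at days 0, 4, 8 and 12 in MEFs, while the median over all genes lay between -0.013 and 0.012. Of the 31 members, 29, 29 and 30 had a higher level in DKO cells at days 3, 6 and 9 in preadipocytes, and 28, 29 and 30 at days 4, 8 and 12 in MEFs. All 3 DKO libraries were above all 3 WT libraries for 19 members at day 3 (background 1599 of 15119 genes tested, 10.6%), 23 at day 6 (background 3626 of 14694 genes tested, 24.7%) and 24 at day 9 (background 3257 of 14700 genes tested, 22.2%) in preadipocytes. In MEFs the count was 4 at day 4 (background 864 of 15475 genes tested, 5.58%), 5 at day 8 (background 1246 of 15117 genes tested, 8.24%) and 27 at day 12 (background 4057 of 15319 genes tested, 26.5%). At an adjusted p under 0.05 and any fold, 17 members passed at day 6 (background 3172 of 14694 genes tested, 21.6%), 3 at day 9 (background 310 of 14700 genes tested, 2.11%) and 25 at day 12 in MEFs (background 5062 of 15319 genes tested, 33%).

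**Figure D3:**
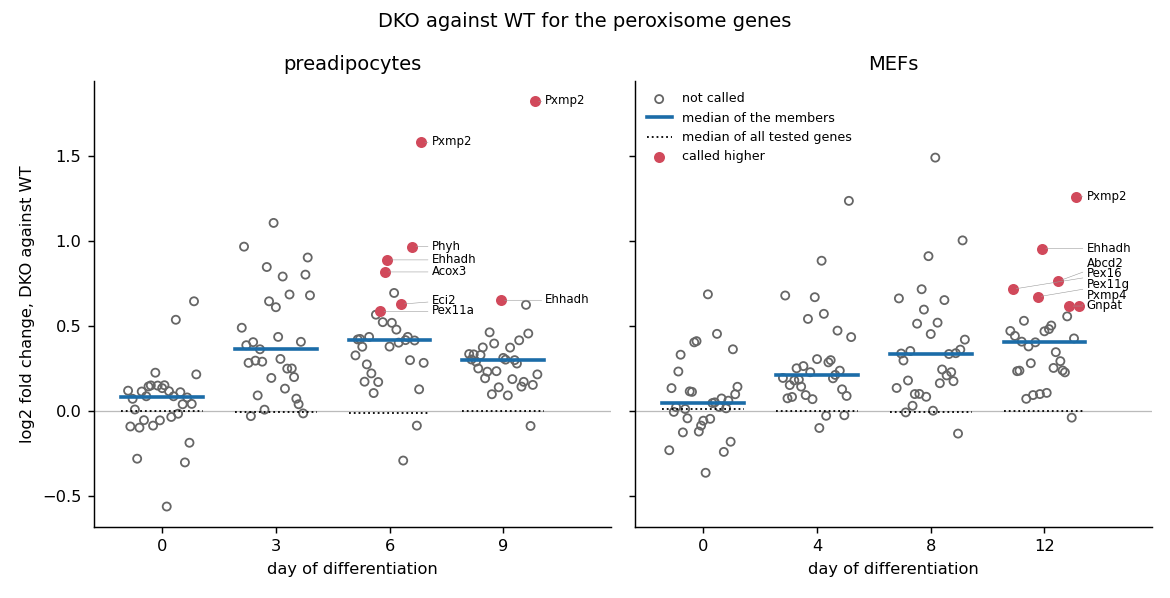
Log2 fold change of DKO against WT for the 31 peroxisome genes by day, preadipocytes on the left and MEFs on the right, one circle per gene, filled where called. Solid bars are the medians of the members and dotted lines those of all genes tested. The members' median lies above the dotted line at every day, by the least at day 0.

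Ehhadh (chromosome 16, 21761287 to 21787807) was the gene called most often with Pxmp2, each in 3 comparisons. At day 6 in preadipocytes it had 39.8, 48.9 and 38.0 CPM in the WT and 66.7, 92.8 and 81.3 CPM in the DKO libraries, a log2 fold change of 0.89 ± 0.13 (adjusted p = 0.00521). At day 9 the values were 58.5, 65.0 and 62.6 CPM and 91.3, 109.6 and 98.5 CPM (0.65 ± 0.083, adjusted p = 0.0226). At day 12 in MEFs they were 71.2, 72.1 and 73.6 CPM and 144, 135 and 148 CPM (0.96 ± 0.045, adjusted p = 5.67e-10). WT and DKO libraries did not overlap in any of the 3. At day 0 the means were 4.87 ± 0.425 and 4.68 ± 0.506 CPM (SD, n = 3) in WT and DKO preadipocytes and 6.83 ± 0.614 and 6.42 ± 1.72 CPM in MEFs, with overlapping libraries. The day 9 call was lost under 6 of 11 alternatives.

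Pxmp2 (chromosome 5, 110274282 to 110286186) had the largest difference of any member at each of these 3 comparisons. Its WT and DKO libraries had 2.82, 3.12 and 2.62 CPM and 7.35, 10.8 and 8.28 CPM at day 6 (1.58 ± 0.18, adjusted p = 0.00267). Those of day 9 had 2.72, 2.91 and 3.40 CPM and 11.0, 8.71 and 13.1 CPM (1.82 ± 0.19, adjusted p = 0.0116), a 3.54-fold difference. At day 12 in MEFs they had 2.96, 2.22 and 3.43 CPM and 7.14, 6.13 and 7.55 CPM (1.26 ± 0.18, adjusted p = 4.6e-05). At day 0 in preadipocytes it again had the highest value of the members, with 0.695, 0.740 and 0.744 CPM in WT and 1.32, 1.06 and 1.02 CPM in DKO (0.65 ± 0.26, adjusted p = 0.614, not called and with no overlap). In MEFs at day 0 the groups overlapped (0.098 ± 0.28). The day 9 call was lost without any one of the 3 WT libraries of that day, where the adjusted p rose to at most 0.102.

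The other preadipocyte calls of day 6 came from 4 branches of the pathway. Phyh (chromosome 2, 4919019 to 4938730) had 62.9, 78.9 and 64.6 CPM in WT and 127, 122 and 164 CPM in DKO (0.97 ± 0.14, adjusted p = 0.00484). For Acox3 (chromosome 5, 35583040 to 35615352) the values were 58.9, 67.6 and 63.2 and 114, 102 and 126 CPM (0.82 ± 0.10, adjusted p = 0.0036). Neither gene had overlapping groups, and both kept their call under 11 of 11 alternatives. Eci2 (chromosome 13, 34977748 to 35027096) had 86.2, 107 and 88.1 CPM in WT and 133, 157 and 156 CPM in DKO (0.63 ± 0.10, adjusted p = 0.00724). Pex11a (chromosome 7, 79735957 to 79743131) had 54.9, 65.1 and 51.4 CPM in WT and 83.6, 94.0 and 86.0 CPM in DKO (0.59 ± 0.095, adjusted p = 0.00687). It was just past the fold threshold and lost its call under 6 of 11 alternatives, against 3 of 11 for Eci2.

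The other MEF calls of day 12 were those of 1 of 3 membrane assembly genes, 1 of 2 transporters, 1 of 2 division factors, 1 of 2 ether lipid genes and a membrane protein. Pex16 (chromosome 2, 92374676 to 92381217) had 80.1, 77.0 and 77.2 CPM in WT and 125, 141 and 125 CPM in DKO (0.72 ± 0.051, adjusted p = 4.43e-08). Abcd2 (chromosome 15, 91145871 to 91191799) had 90.9, 89.3 and 86.1 CPM and 146, 164 and 150.3 CPM (0.76 ± 0.048, adjusted p = 1.32e-08). Pex11g (chromosome 8, 3457105 to 3467680) had 10.4, 10.4 and 9.95 CPM and 16.2, 17.6 and 16.1 CPM (0.67 ± 0.091, adjusted p = 3.23e-05). In each of these genes the lowest DKO library was above the highest WT library. Gnpat (chromosome 8, 124863033 to 124890057) had 153, 152 and 154 CPM in WT and 231, 260.1 and 223 CPM in DKO (0.62 ± 0.052, adjusted p = 3.16e-07). Pxmp4 (chromosome 2, 154585758 to 154603708) had 67.2, 68.6 and 69.8 CPM and 101, 114 and 106 CPM (0.62 ± 0.049, adjusted p = 1.31e-07). Both lay close to the fold threshold, which Gnpat missed under 3 and Pxmp4 under 2 of 11 alternatives.

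**Figure D4:**
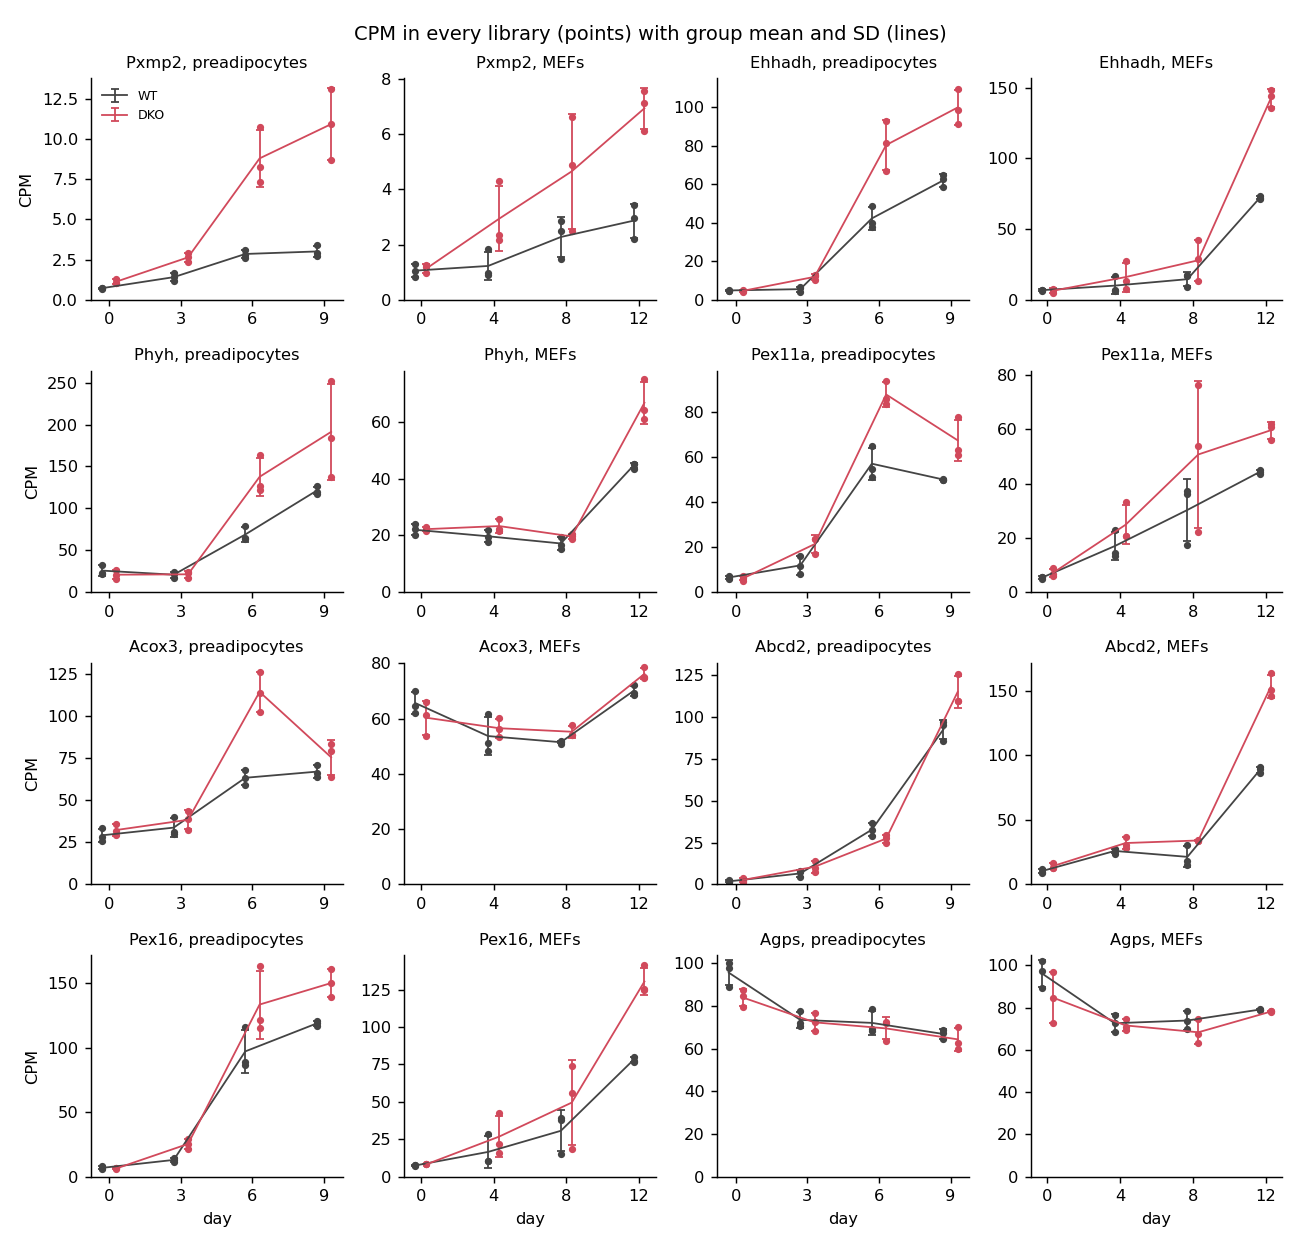
Level in CPM (vertical, from 0) against day (horizontal) of 7 called genes and of Agps, each in preadipocytes and in MEFs, with 1 point per library and lines and bars for the mean and SD of 3 libraries of WT (dark) and DKO (red). The DKO points of Pxmp2 and Ehhadh lie above the WT points at the last day in both cell types, those of Acox3 at day 6 in preadipocytes, and those of Agps at no day.

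Abcd2, Cat and Agps were not called at day 6 in preadipocytes. Abcd2, called in MEFs, had 29.1, 32.5 and 36.4 CPM in WT and 27.6, 29.6 and 24.8 CPM in DKO preadipocytes at day 6, with overlapping groups (-0.29 ± 0.10, adjusted p = 0.0793). Cat, the marker enzyme, had 667, 772 and 703 CPM in WT and 737, 911 and 751 CPM in DKO preadipocytes at day 6 (0.13), also overlapping. In MEFs at day 12 it had 952, 938 and 923 and 1273, 1333 and 1235 CPM (0.43, adjusted p = 1.73e-06, under the fold threshold). Agps lay at -0.087, -0.089 and -0.040 in the 3 comparisons with calls. The members not called ranged from -0.29 (Abcd2) to 0.69 (Acaa1b) at day 6, from -0.089 (Agps) to 0.62 (Phyh) at day 9 and from -0.040 (Agps) to 0.56 (Phyh) at day 12 in MEFs.

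Whether the size of the DKO difference changed over time was tested by the interaction of genotype and day. Between days 0 and 6 in preadipocytes it was called for 4 members, Phyh (1.30 ± 0.31, adjusted p = 0.0435), Ehhadh (0.98 ± 0.20, adjusted p = 0.0281), Pex11a (0.71 ± 0.17, adjusted p = 0.0457) and Acox3 (0.70 ± 0.16, adjusted p = 0.0391), all larger at day 6, beside 332 of 16236 genes tested, 2.04%. Higher calls made up 58.6% of all calls there, and 32.8% with scaling by library size alone. That count was the least steady one: it ranged from 0 to 6 when 1 of the 12 libraries was left out. It was 0 without replicate 1 or 2 of WT at day 0, replicate 3 of DKO at day 0, replicate 1 or 3 of WT at day 6, or replicate 3 of DKO at day 6. It was 1 without replicate 3 of WT at day 0, and 2 without replicate 1 of DKO at day 0 or replicate 2 of DKO at day 6. Between days 6 and 9 edgeR without a block called 0 members in either direction. Over all genes it called 0 of 15410 genes tested, 0%, for higher calls and the same for lower calls. At an unadjusted p under 0.05 were 4 members (background 847 of 15410 genes tested), and DESeq2 called 1. Replicate numbers paired the day 6 and day 9 libraries of each genotype in this comparison. With them as a block, 41 of 15410 genes tested were called. Acox3 had the most negative value, -0.68 ± 0.15 (adjusted p = 0.395), and was called by DESeq2 (-0.68, adjusted p = 0.0494), not by limma-voom, and with the replicate number as a block (-0.68, adjusted p = 0.0214). Its DKO libraries had 114, 102 and 126 CPM at day 6 and 79.4, 63.6 and 83.2 CPM at day 9, while the WT libraries had 58.9, 67.6 and 63.2 and 63.8, 65.9 and 71.0 CPM. In MEFs 0 members were called between days 0 and 8 (background 0 of 16374 genes tested, 0%), and 0 by DESeq2 or limma-voom. Between days 8 and 12 the counts were also 0 (background 0 of 15994 genes tested, 0%). In each, 1 member had an unadjusted p under 0.05 (backgrounds 859 of 16374 and 1215 of 15994 genes tested). Both use day 8, where the members' sums were 1749 to 2565 CPM in WT and 1852 to 3868 CPM in DKO. The change between days 0 and 12 in MEFs was not tested.

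Marker genes of several cell types also differed between DKO and WT cells. At day 6 in preadipocytes the summed level of the 10 adipocyte markers was 23260 to 27990 CPM in WT and 31050 to 38280 CPM in DKO libraries, 1.43 times as high by the medians. The 6 fibroblast and preadipocyte markers were at 9371 to 11190 against 2841 to 4430 CPM, and the 6 macrophage and leukocyte markers at 4690 to 7980 against 1764 to 3648 CPM. Of these markers 3, 1 and 0 were called higher and 0, 3 and 1 lower. At day 9 the adipocyte sum was 29120 to 30380 against 37640 to 44940 CPM and the fibroblast sum 10000 to 10530 against 3336 to 10800 CPM, with 0 markers called, and the macrophage sum was 2385 to 5127 against 1157 to 2338 CPM. At day 12 in MEFs adipocyte markers were at 19610 to 20010 CPM in WT and 29940 to 31730 CPM in DKO, 1.5 times as high. Fibroblast markers were at 14390 to 14960 against 8444 to 9096 CPM and macrophage markers at 3791 to 3839 against 2364 to 2728 CPM. Of these 3 lists 8, 0 and 0 genes were called higher and 0, 3 and 1 lower, and 2 of 3 epithelial markers tested were called higher and 2 of 3 endothelial markers tested lower. The summed peroxisome genes were 1.36 and 1.38 times as high in DKO cells at day 6 in preadipocytes and day 12 in MEFs. Such a sum is weighted toward the most abundant members, Scp2, Cat and Hsd17b4, none of which the main edgeR test called in DKO against WT. At day 3, where the main edgeR test called no member, adipocyte markers were already 2.26 times as high and the members' sum 1.4 times. Macrophage markers were 2.42 times as high there by the medians, at 61.2 to 204 against 46.7 to 176.8 CPM with overlap. In MEFs the adipocyte sum was already 1.99 times as high at day 0 (965 to 1171 against 1601 to 2322 CPM), where the members' sum was 1.02 times as high. The ratios were 2.38 and 1.17 at day 4, and 1.36 and 1.3 at day 8. Endothelial markers summed to at most 31.2 CPM in any library, and the 3 hepatocyte markers to at most 13.0 CPM, while all 4 epithelial markers had at most 3 counts in every preadipocyte library of days 6 and 9. The part of these markers in the DKO difference was not tested.

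Other genes of lipid oxidation and of the peroxisome were counted in the same way. Of 44 other peroxisome genes, 36 were tested at each of these days, and 11 were called higher in DKO preadipocytes at day 6, 3 at day 9 and 6 in DKO MEFs at day 12, none lower. Their medians were 0.45, 0.33 and 0.37 on the log2 scale, near those of the 31 members. Of 18 genes of mitochondrial beta-oxidation, the pathway that burns ordinary chains, 12, 2 and 5 were called higher and none lower, with medians of 0.69, 0.49 and 0.53. No difference between the lists was tested. In WT cells 17 of those 18 were called higher at the last day in either cell type, with medians of 3.01 and 1.998, beside 1.83 and 1.18 for the peroxisome members.

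Per kilobase of exon, the members differed widely in level. In WT preadipocytes at day 9 the order began with Scp2 at 304 ± 9.25 CPM per kilobase (SD, n = 3), Cat at 258 ± 13.1, Hsd17b4 at 129 ± 5.22, Acaa1b at 80.6 ± 8.27 and Pex19 at 75.8 ± 0.347. It ended with Pxmp2 at 2.51 ± 0.293, Pex7 at 2.29 ± 0.114 and Pex10 at 2.26 ± 0.258. In WT MEFs at day 12 Cat led with 359 ± 5.46, ahead of Scp2 with 184 ± 1.505, and Hsd17b4 came next with 109 ± 4.32. The last places were those of Pex10 (1.96 ± 0.0470) and Pex7 (1.81 ± 0.180). Pex7 and Pex10 did not differ beyond their spread in either cell type. The gene of largest DKO difference, Pxmp2, was thus among the scarcest transcripts, and even at day 9 in DKO preadipocytes reached only 9.11 ± 1.85 CPM per kilobase.

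**Figure D5:**
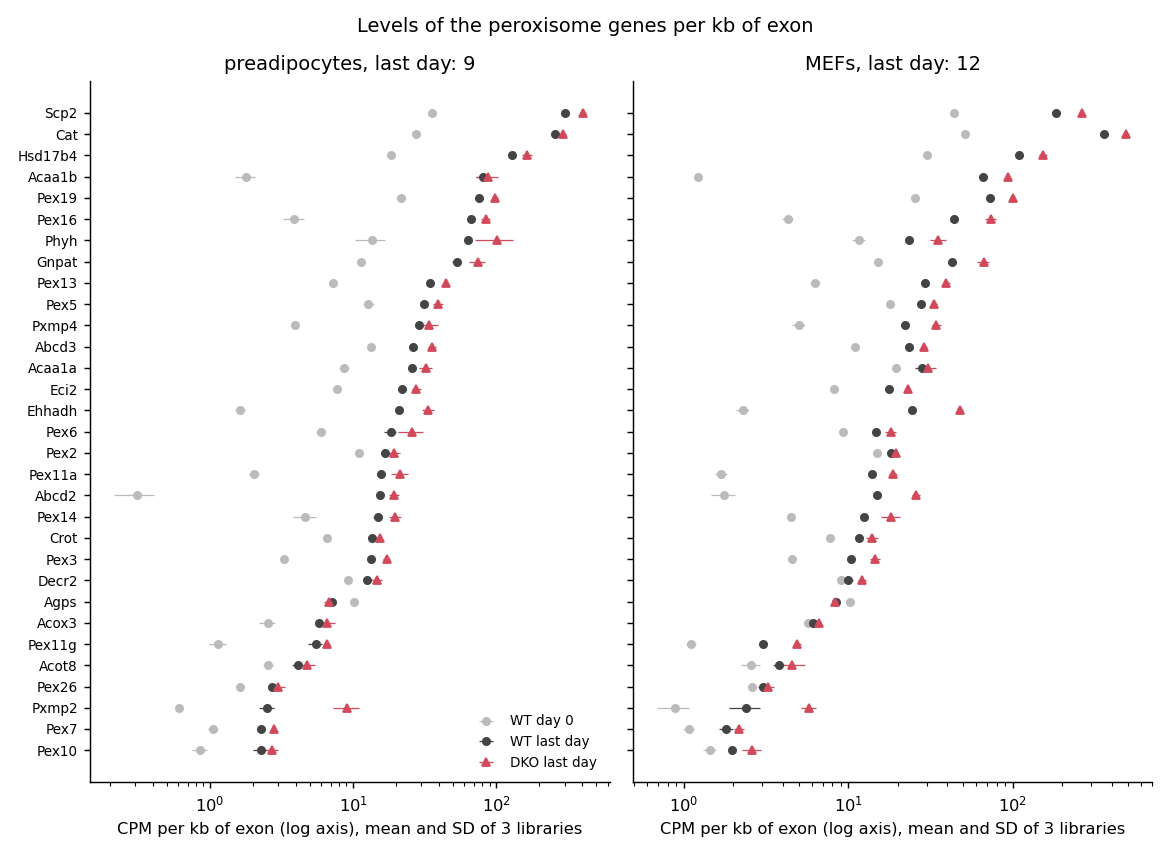
Mean level of each peroxisome gene per kilobase of exon (CPM per kb, log axis) in WT cells at day 0 (grey) and in WT and DKO cells at the last day (black and red), preadipocytes and MEFs in separate panels, with bars of 1 SD over 3 libraries. Rows follow the order in WT preadipocytes at day 9, and the red mark of Pxmp2 lies farthest to the right of its black mark.

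The 31 genes lie on 16 chromosomes, 6 of them on chromosome 2. All of them are protein-coding, and the positions given are those of the mm10 build.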

How the data were processed

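RNA-seq gene tables of 48 libraries were analysed, 24 per cell type. The authors aligned the reads to mm10 with STAR 2.7.0f and deposited estimated counts per gene (expected counts) from RSEM 1.3.0; the submitters' processing notes also name bcl2fastq 2.17 and cutadapt 1.18. RSEM divides reads that match several genes, so that near-identical copies can share counts, and between 5.49% and 7.9% of the values in a library were not whole. The expected counts were rounded, and all 55450 gene identifiers matched the GENCODE annotation used for positions. The 31 members, the comparison lists and the markers were chosen with earlier results of these data known.

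Genes with low counts were removed per comparison (filterByExpr), libraries were scaled by TMM, and groups were compared with the robust quasi-likelihood test of edgeR 4.0.16 (R 4.3.3), fitted on the libraries of the groups compared, with Benjamini-Hochberg adjustment over all genes tested. All 31 members passed the filter in every comparison. Calls needed a fold change of 1.5 or more beside an adjusted p under 0.05. Levels are CPM on 1 TMM scale per cell type, not comparable in absolute terms between the cell types, and errors of fold changes are SE. Values in every library were given for members called in a DKO against WT comparison or called in WT cells of both cell types, and the others by range and count. Positions and 50-base overlaps came from the annotation of the same build, and promoters from RefSeq (GRCm38.p6). The procedure was tested on simulated data. That test covered some of the comparisons, with the same spread for every gene, so it does not cover the spread of these libraries. Alternatives were DESeq2 1.42.0, limma-voom 3.58.1 with quantile normalization, scaling by library size, no filter, no fold threshold, omission of each library in turn, and a block for the replicate number. Libraries of the same replicate number were checked by the correlation of their deviations from the group means. In no DKO against WT comparison were all pairs of WT and DKO libraries over 0.1. The day 6 and day 9 libraries within each genotype of preadipocytes paired (0.133 to 0.484, 6 of 6 pairs over 0.1), and those of no other days compared did.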

Additional observations from a re-analysis of the deposited data

Results flagged for a closer look

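In preadipocytes the DKO difference was larger at day 6 than at day 0 for 4 members, by the test of the interaction between genotype and day across all genes (edgeR). On the log2 scale the difference between the days was 1.303 ± 0.307 for Phyh (SE, adjusted p = 0.0435), 0.98 ± 0.202 for Ehhadh (adjusted p = 0.0281), 0.709 ± 0.174 for Pex11a (adjusted p = 0.0457) and 0.701 ± 0.162 for Acox3 (adjusted p = 0.0391). For all 4 the 3 DKO libraries were above the 3 WT libraries at day 6 and the groups overlapped at day 0. The adjusted values lie close to the threshold, and 0 of the 4 calls were left without any one of 6 of the 12 libraries. No cause was tested.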

How the results depend on the processing

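Alternatives were run for the counts and for members that were called. Of 2081 values of single called members, for 187 results, 0 changed sign, 1959 kept their side of the threshold and 122 lost the call. Most of these results compare a later day with day 0, and the losses were uneven. The DKO against WT results lost the call under 0 to 6 of 11 alternatives. The interaction results of days 6 and 0 lost it under 12 (Phyh), 12 (Pex11a), 11 (Acox3) and 7 (Ehhadh) of 17. For DKO against WT at day 3 in preadipocytes, where 0 members were called, DESeq2 and the test without a filter called 6 each and the replicate block 5, of 408, 154 and 278 genes called in all. At day 6 the count of 6 became 17 with no fold threshold (background 3172 of 14694 genes tested, 21.6%) and 4 to 10 with 1 library left out. At day 9 the count of 2 became 1 under scaling by library size and 0 to 3 with 1 library left out. At day 12 in MEFs the 7 became 25 with no fold threshold (background 5062 of 15319 genes tested, 33%) and 5 to 9 with 1 library left out. Between days 0 and 4 in WT MEFs the count of 8 became 14 with no fold threshold (background 8217 of 15690 genes tested, 52.4%). Between days 0 and 8 the 15 became 23 (background 7420 of 15467 genes tested, 48%), and 9 to 19 with 1 library left out. For the interaction of days 6 and 0 in preadipocytes the 4 calls became 1 under scaling by library size, 1 under limma-voom, 2 with the replicate block and 0 to 6 with 1 library left out, and for days 9 and 6 the 0 calls became 1 under DESeq2 and 1 with the replicate block. The block moved no other count of members by over 1.5 times, and outside the comparison of days 9 and 6 the libraries share only a number. The test without a filter had more genes and left-out libraries fewer samples; otherwise the cause was not tested. Scaling by library size moved the median of all genes at day 6 to -0.11 in DKO against WT, with the members at 0.32, and by at most 0.27 in size in the comparisons over time. The pair with fewest counts at day 0 was Pxmp2 and Acaa1b, and the spread of 3 libraries limits every difference under the fold threshold.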

Other observations

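Acot8, Crot, Acaa1a and Pex10, which were not called between days 0 and 12 in WT MEFs, were called higher in DKO MEFs over the same days, with log2 fold changes of 1.08 ± 0.23 (SE), 0.80 ± 0.12, 1.04 ± 0.11 and 0.93 ± 0.20, against 0.57 ± 0.14, 0.58 ± 0.054, 0.53 ± 0.058 and 0.45 ± 0.13 in WT. The difference between the genotypes in that rise was not tested. Acaa1a started at 83.4, 85.5 and 87.6 CPM in WT MEFs and 68.9, 68.3 and 62.1 CPM in DKO MEFs, with no overlap, and ended at 134, 124 and 112 and 125, 153 and 127 CPM, with overlap. Levels of Acox3 in WT MEFs were below day 0 on day 8, at 51.0, 51.7 and 51.8 CPM against 62.2, 70.1 and 64.6 CPM (-0.35 ± 0.064, adjusted p = 0.00506, under the fold threshold), before they returned at day 12. These genes were named after their values were seen.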
